A study of Mus musculus with 93 samples.

Results

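p53, the protein of Trp53, is a transcription factor that is kept low in unstressed cells and accumulates after DNA damage and other stresses. It switches on genes that stop the cell cycle, that help repair DNA, that kill the cell and that switch p53 itself off again, so its activity is read from those targets rather than from its own mRNA. The pathway is known to be active in pluripotent cells and to take part in removing less fit cells from the early embryo. Described here are Trp53 and 32 listed target genes and partners of p53, 33 of the 24514 gene symbols in the counts, chosen by name. Cyclin-dependent kinases were not among them. The genes were read by role: 5 that feed back on p53, 6 of arrest and growth control, 14 of cell death and 7 of repair and metabolic defence.

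The study set heart field progenitors made in culture beside those of the embryo. All cells carried the same 3 alleles, Hcn4-GFP, Tbx1-Cre and the reporter Ai9. GFP+ cells express Hcn4, a marker of the first heart field, while RFP+ cells have at some time expressed Tbx1, a gene of the second heart field and pharynx, because Cre turns the reporter on for good. Wild-type cells and untreated controls were not part of the comparison. The 9 embryo libraries came from E7.75 embryos by the protocol, although their titles read 8.5, with 5 GFP+ and 4 RFP+. The 84 spheroid libraries came from spheroids at day 5.5 of 1 embryonic stem cell line derived from those mice, with 38 GFP+ and 46 RFP+. The spheroids were induced with growth factors (Activin A, Bmp4 and Wnts are named), and the labels do not give the mixture behind each library. Each library was made from 10 sorted cells. In such pooled samples fewer cells of a type and less RNA per cell cannot be told apart.

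The labels do not tie wells to embryos or to differentiations, so p-values measure the spread between wells, which may be technical. Totals ran from 712732 to 2525460 counts in embryo GFP+ libraries, from 1246546 to 1479957 in embryo RFP+ libraries and from 445071 to 5658882 in spheroid RFP+ libraries. Spheroid GFP+ libraries held 828193 to 4371849 counts apart from well C9, which had 6288 and in which 1 read is worth 73.9 CPM (counts per 1000000 counts of the library, with TMM normalization over all 93 libraries). Embryo GFP+ libraries detected 6189 to 8302 genes and embryo RFP+ libraries 10263 to 13052. Spheroid GFP+ libraries other than C9 detected 12837 to 14671 genes and spheroid RFP+ libraries 11434 to 13880. Spheroid RFP+ cells were in plate columns 1 to 6 and spheroid GFP+ cells in columns 7 to 11, so the sorted colour and the plate position cannot be told apart. In 7 plate rows the RFP+ wells of columns 3 and 4 were more alike than any other libraries (r from 0.976 to 0.994). Their counts differed by more than sampling noise (chi-square per degree of freedom from 1.37 to 2.39). That does not show that they were separate pools of cells, which the labels do not settle. They were kept as separate libraries in the main tests and summed in an alternative. If they share cells, n, SD and p-values of spheroid RFP+ cells count those pools more than once. Hcn4 had reads in 5 of 5 and 37 of 38 GFP+ libraries and in 1 of 4 and 18 of 46 RFP+ libraries of embryo and spheroid, and Tbx1 in 0 of 5, 2 of 38, 3 of 4 and 41 of 46 in the same order.

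p53 binds DNA at a site made of a pair of 10-base half-sites. Promoter sequences (RefSeq, GRCm38.p6, from 250 bases before to 50 bases after a gene's start) were found for 25 of the 33 genes, in 33 windows. Windows of Pmaip1, Perp, Tnfrsf10b, Trp53inp1, Zmat3, Rrm2b, Ddb2 and Xpc were not used here. The p53 half-site consensus, searched on both strands by its published letters, was in 13 of the 33 windows (39.4%), which belong to 12 genes, and in 8.36% of all 32851 promoter windows. A full site, allowing a gap of up to 13 bases and 1 mismatch outside the invariant bases, was in 2 of the windows, those of Cdkn1a and Ccng1, and in 0.627% of all windows. A match describes the letters only. Shown are these windows and that of Bax, which holds a half-site without a partner and whose transcript moved the other way in spheroids. Capitals mark the matched half-sites, and each window is written 5′ to 3′ on the strand of its gene.

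Cdkn1a, chr17:29090729-29091028, plus strand: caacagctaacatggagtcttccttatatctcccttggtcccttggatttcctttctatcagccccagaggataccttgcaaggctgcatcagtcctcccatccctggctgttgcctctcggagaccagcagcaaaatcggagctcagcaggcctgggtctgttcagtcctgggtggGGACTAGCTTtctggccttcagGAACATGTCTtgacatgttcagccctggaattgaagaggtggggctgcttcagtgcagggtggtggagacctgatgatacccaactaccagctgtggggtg
Ccng1, chr11:40755237-40755536, minus strand: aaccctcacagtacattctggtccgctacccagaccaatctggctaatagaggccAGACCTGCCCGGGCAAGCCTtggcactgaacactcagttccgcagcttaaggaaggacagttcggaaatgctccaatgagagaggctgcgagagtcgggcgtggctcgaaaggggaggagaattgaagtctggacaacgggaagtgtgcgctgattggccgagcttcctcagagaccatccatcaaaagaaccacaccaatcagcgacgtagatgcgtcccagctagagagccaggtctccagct
Bax, chr7:45466849-45467148, minus strand: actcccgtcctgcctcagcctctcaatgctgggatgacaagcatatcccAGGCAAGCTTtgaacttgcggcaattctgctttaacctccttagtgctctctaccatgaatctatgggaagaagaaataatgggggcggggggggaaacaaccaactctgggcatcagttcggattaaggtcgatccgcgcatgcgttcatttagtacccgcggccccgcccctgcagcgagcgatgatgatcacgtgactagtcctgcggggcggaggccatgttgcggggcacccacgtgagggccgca

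The marked half-sites of Cdkn1a span bases -73 to -42 from the start with a gap of 12 and no mismatch, a match that 24 windows of the whole table (0.0731%) also have. The bases directly after the downstream half-site, tgacatgttc, match the consensus with 1 mismatch. By the stated rule they form another full site with that half-site, without a gap. The other window of Cdkn1a held no half-site. The half-sites of Ccng1 span bases -195 to -176 with no gap and 1 mismatch.

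The summed level of these genes was highest in spheroid GFP+ cells of the 4 groups. Together the 33 genes took 6774 ± 1125 CPM there (SD, n = 38), which is 0.677% of counts. In spheroid RFP+ cells they took 1767 ± 279 CPM (n = 46), in embryo GFP+ cells 982 ± 426 CPM (n = 5) and in embryo RFP+ cells 952 ± 115 CPM (n = 4). The groups of spheroid libraries did not overlap once C9 was left out, with sums of 4354 to 8626 CPM in GFP+ and 1258 to 2481 CPM in RFP+ libraries, while the embryo groups overlapped. The level of Trp53 itself followed another order.

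**Figure D1:**
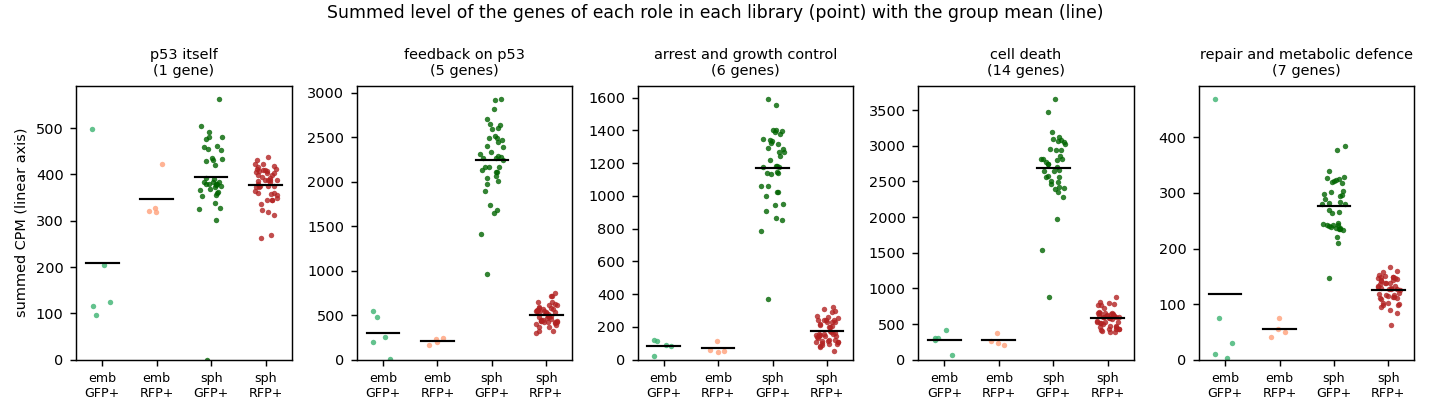
Summed CPM (linear axis) of the genes of each role in every library (points), with the group mean (line), for embryo (emb) and spheroid (sph) cells. Feedback, arrest and death genes stand highest in spheroid GFP+ cells, with group means of 2246, 1170.3 and 2686 CPM against 506, 175 and 582 CPM in spheroid RFP+ cells, whereas Trp53 has 395 and 378 CPM; the point at 0 in the first panel is well C9.

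Trp53 had reads in every library but C9. It ran from 302 to 564 CPM in the other spheroid GFP+ libraries (median 384) and from 263 to 437 CPM in spheroid RFP+ libraries (median 386). In the embryo it was 499, 96.3, 124, 203 and 117 CPM in the GFP+ libraries and 328, 318, 321 and 422 CPM in the RFP+ libraries. Most spheroid libraries and the embryo RFP+ libraries shared 1 range, and 4 of 5 embryo GFP+ libraries lay below it. Between the spheroid populations Trp53 was lower in RFP+ cells by a log2 fold change of -0.14 (SE 0.04, edgeR quasi-likelihood test, Benjamini-Hochberg adjusted p = 0.00175), which is 1.11-fold. In the embryo it was not called (log2 0.71, SE 0.46, edgeR adjusted p = 0.575), but it was higher in RFP+ cells without GFP+ library A12 (1.29, edgeR adjusted p = 0.031).

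Of the 33 genes, 31 could be tested between the spheroid populations. Of these, 29 were higher in GFP+ cells, where 40.1% of all 9940 genes tested were, and 2 in RFP+ cells, where 37.8% were. Their median log2 fold change was -1.79, against -0.02 over all genes tested. Plk3 and Sfn fell under the filter on low counts. Fas, Bbc3, Sesn2 and Gadd45a, with RFP+ medians of 1.19, 3.37, 3.63 and 5.70 CPM, passed it through the GFP+ libraries. Their calls are among the 29 and thus describe genes picked by their high group. A gene counts as called at an adjusted p under 0.1 over all genes tested, and negative values mean higher in GFP+ cells. All 31 calls held under each of the 11 alternative analyses.

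All 5 feedback genes were higher in spheroid GFP+ cells. Mdm2, the ubiquitin ligase that sends p53 to the proteasome, ran from 443 to 1656 CPM in GFP+ libraries (median 1126) and from 45.4 to 419 CPM in RFP+ libraries (median 156), without overlap. Its log2 fold change was -2.86 (SE 0.11, edgeR adjusted p = 5.42e-44). Ccng1, a cyclin that acts on the Mdm2 loop, had 369 to 1200.0 CPM (median 814) in GFP+ and 61.1 to 293 CPM (median 146) in RFP+ libraries. It too did not overlap, with a log2 fold change of -2.47 (SE 0.07, edgeR adjusted p = 3.13e-52). Smaller differences were found for Ppm1d, the phosphatase that dampens damage signalling (-1.11), Rchy1, another ubiquitin ligase (-0.86), and Mdm4, an Mdm2 relative that blocks p53 (-0.66).

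**Figure D2:**
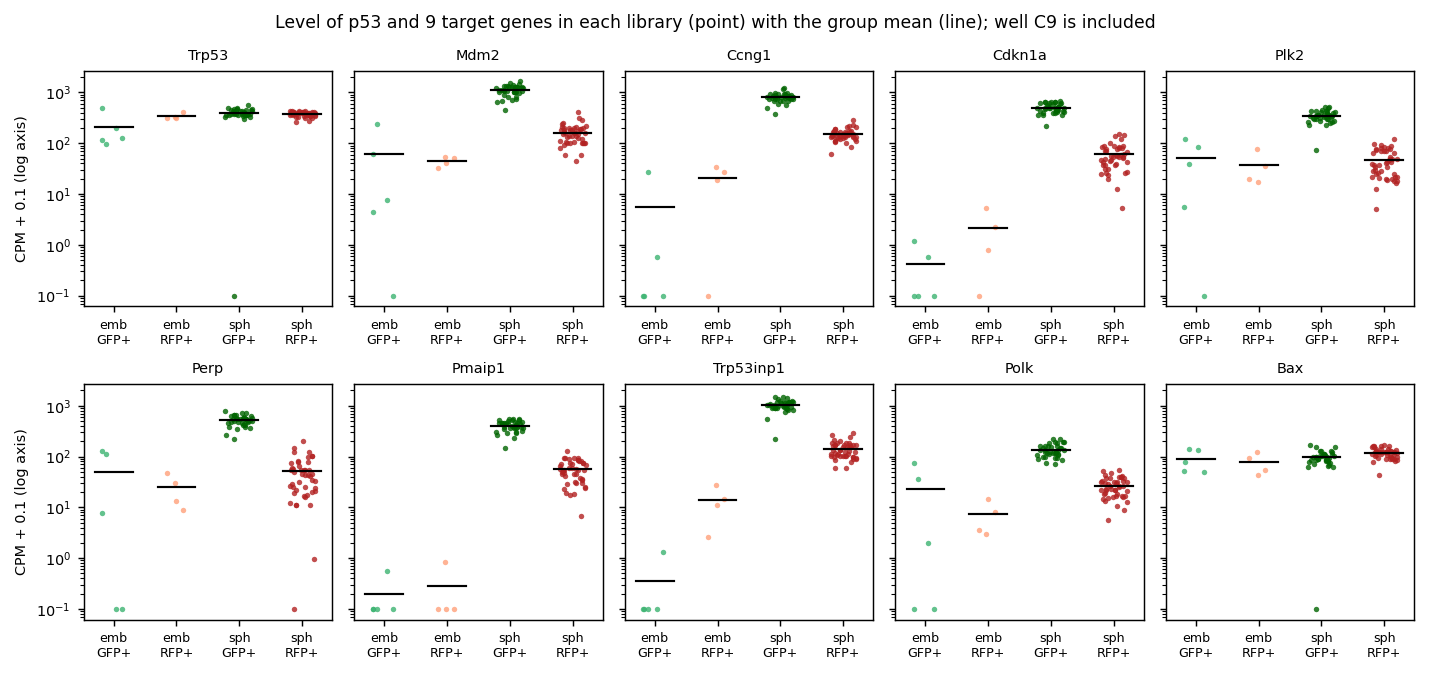
Level (CPM + 0.1, log axis) of Trp53 and 9 of its targets in every library (points) with the group mean (line). Mdm2, Ccng1, Cdkn1a, Perp, Pmaip1 and Polk separate the spheroid populations without overlap, Trp53 and Bax do not, and Cdkn1a and Pmaip1 lie at or near 0 in both embryo groups.

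The 4 arrest genes that could be tested were all higher in spheroid GFP+ cells. Cdkn1a, the inhibitor p21 that halts the cycle, ran from 222 to 689 CPM in GFP+ libraries (median 496) and from 5.17 to 150 CPM in RFP+ libraries (median 54.3). The groups did not overlap, and the difference was 8.67-fold (log2 -3.12, SE 0.13, edgeR adjusted p = 7.39e-41). Plk2, a stress-inducible kinase of the polo family, had 73.9 to 523 CPM (median 344) and 4.93 to 123 CPM (median 40.0), and overlapped only through C9. Its log2 fold change was -2.96 (SE 0.13, edgeR adjusted p = 1.7e-37). Btg2, an antiproliferative gene, and Gadd45a, a damage-inducible stress sensor, differed by -2.31 and -2.22. Of the untested pair, Plk3 averaged 4.92 ± 3.95 and 1.70 ± 1.98 CPM, and Sfn, the 14-3-3 protein that holds cells before mitosis, 3.37 ± 2.33 and 0.364 ± 0.731 CPM (SD, n = 38 and 46).

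Of the 14 death genes, 13 were higher in spheroid GFP+ cells. Perp, a membrane protein of p53-dependent death and of cell junctions, had the largest difference of the members tested, with 222 to 780 CPM (median 535) in GFP+ and 0 to 205 CPM (median 43) in RFP+ libraries. This was 10.7-fold without overlap (log2 -3.42, SE 0.17, edgeR adjusted p = 6.56e-34). Pmaip1 encodes Noxa, which with Puma (Bbc3) is a BH3-only protein that opens the mitochondrial route to death. Pmaip1 had 148 to 558 CPM (median 412) in GFP+ and 6.65 to 126 CPM (median 54.2) in RFP+ libraries, again without overlap (log2 -2.95, SE 0.12, edgeR adjusted p = 5.48e-42). Trp53inp1, a nuclear partner that favours the death function of p53, had 222 to 1492 CPM (median 1032) and 58.7 to 286 CPM (median 132), and overlapped only through C9. Its log2 fold change was -2.95 (SE 0.09, edgeR adjusted p = 1.31e-49). By this measure the effectors differed unevenly. The death receptors Fas and Tnfrsf10b differed by -3.26 and -2.70, the Akt inhibitor Phlda3 by -3.12 and Bbc3 by -2.20. Apaf1, the core of the apoptosome, differed by -1.79, the exonuclease Aen by -1.25, the RNA-binding Zmat3 by -1.22, Bid by -0.99, the PIDDosome scaffold Pidd1 by -0.95 and Ei24 by -0.81.

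Bax, the pore-forming executor on the mitochondrial membrane, was the exception among the death genes. It had 61.1 to 171 CPM in the spheroid GFP+ libraries other than C9 (median 94.6) and 42.6 to 167 CPM in RFP+ libraries (median 122). The ranges lay over each other, and the mean was higher in RFP+ cells by a log2 of 0.22 (SE 0.08, edgeR adjusted p = 0.0072).

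Of the 7 repair and metabolic genes, 6 were higher in spheroid GFP+ cells, by smaller amounts. Polk, a DNA polymerase that copies past lesions, stood out with 70.8 to 222 CPM (median 127) against 5.56 to 55.4 CPM (median 25.3) and no overlap. Its log2 fold change was -2.39 (SE 0.11, edgeR adjusted p = 1.4e-36). Sesn2, a sestrin that restrains growth signalling under stress, differed by -2.27, and Tigar, which diverts glucose breakdown towards antioxidant defence, by -1.08. The ribonucleotide reductase subunit Rrm2b (-0.77) and the lesion sensors Ddb2 (-0.75) and Xpc (-0.40) differed least of these 6. Sesn1, the other sestrin of the list, was higher in RFP+ cells, with 13.7 to 75.6 CPM against 4.26 to 52.9 CPM in GFP+ libraries without C9 (log2 0.43, SE 0.13, edgeR adjusted p = 0.00195).

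In the spheroids 7 of the 31 tested genes had GFP+ libraries all above the RFP+ libraries (Mdm2, Ccng1, Cdkn1a, Pmaip1, Apaf1, Perp and Polk), a pattern that 0.744% of all genes tested showed. Without well C9 there were 12, now with Bbc3, Trp53inp1, Phlda3, Btg2 and Plk2, against 1.87% of all genes. Bbc3 passed the filter on low counts through the GFP+ libraries, so its lack of overlap describes a gene picked by its high group. The lowest spheroid GFP+ values given above for Mdm2, Ccng1, Cdkn1a, Pmaip1 and Perp are those of C9. Without C9 the lowest were 652, 504, 355, 229 and 271 CPM in that order. No member had all RFP+ libraries above all GFP+ libraries, where 1.33% of genes did (1.39% without C9).

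**Figure D3:**
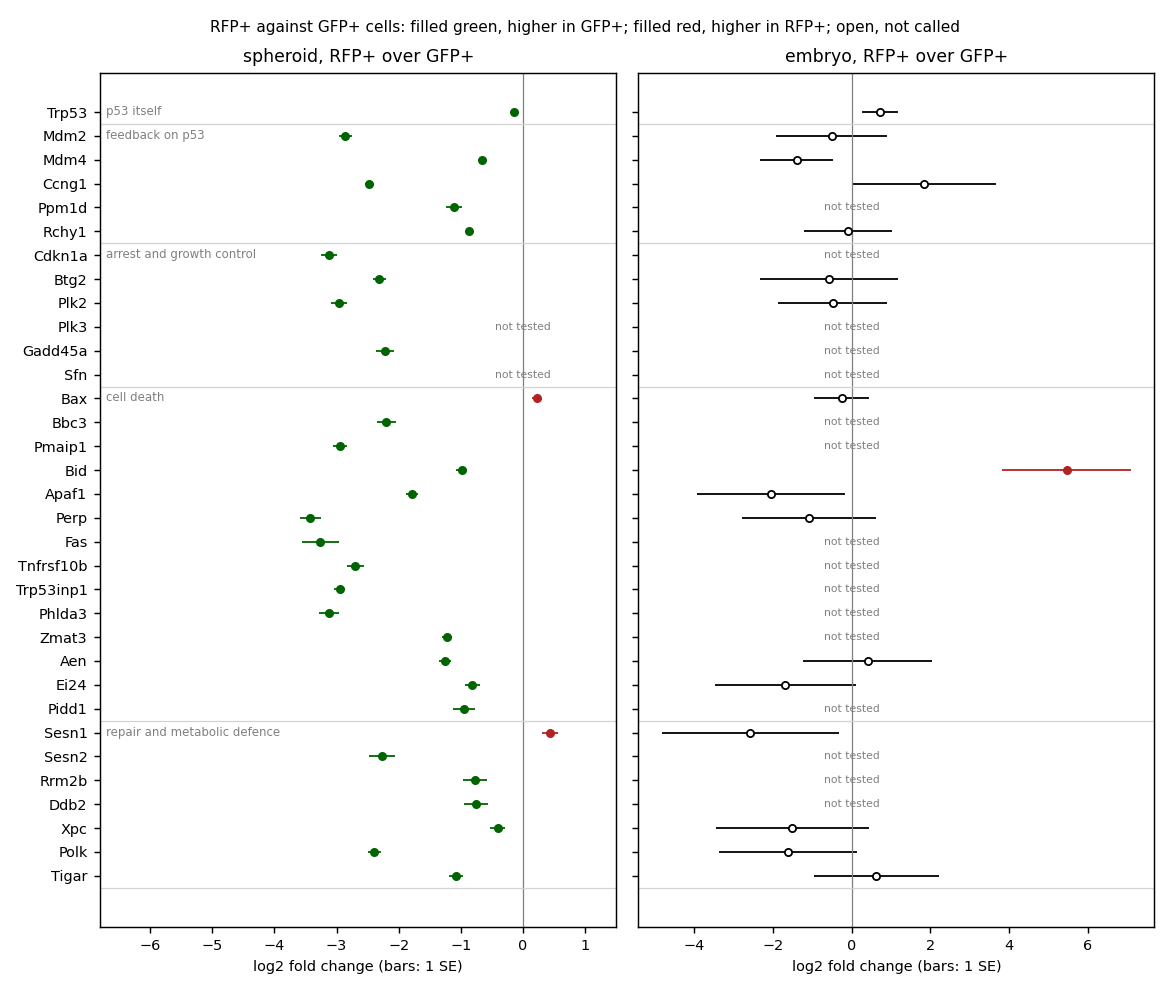
Log2 fold change of RFP+ over GFP+ cells (points, bars 1 SE) for the members by role, in spheroids (left) and embryos (right), filled where called. In spheroids 29 points are filled left of 0 and 2 right of it, while in the embryo Bid is filled and the bars are wide.

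Per kilobase of exon, the level order of the members differed between populations. In spheroid GFP+ cells Perp (268 ± 62.5 CPM per kb, SD), Ccng1 (229 ± 44.8) and Mdm2 (220 ± 51.2) led, and these neighbours lay within 1 SD of each other. In spheroid RFP+ cells Trp53 (93.4 ± 9.54 CPM per kb) and Bax (75.2 ± 16.8) came first, before Ccng1 (42.9 ± 11.4). The same pair led in both embryo groups, with Bax at 58.0 and Trp53 at 51.4 CPM per kb in GFP+ cells, and Trp53 at 85.8 and Bax at 50.3 CPM per kb in RFP+ cells.

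In the embryo the same contrast gave few calls. Of 17 members tested, 1 was higher in RFP+ cells, where 6.21% of 8503 genes were, and none in GFP+ cells, where 3.88% were. DESeq2 also called 0 members higher in GFP+ cells, and 0 had an unadjusted edgeR p under 0.05 in that direction. The median log2 fold change of the 17 was -0.50, against 0.09 over all genes tested. It turned sign with limma voom (1.08), with DESeq2 (0.29, 28 members) and without the filter (0.46, 33 members). The standard errors of the members ran up to 2.25. The called gene was Bid, the BH3-only protein that links death receptors to mitochondria. It had 3.28, 0, 0, 0.929 and 0 CPM in the GFP+ libraries and 41.3, 31.7, 50.4 and 37.5 CPM in the RFP+ libraries. Bid passed the filter on low counts through the RFP+ libraries alone. Its tests and its lack of overlap thus describe a gene picked by its high group. It was the 1 member of the 17 whose groups did not overlap with RFP+ cells higher, where 13.9% of all genes tested did not, and no member had GFP+ cells higher throughout, where 3.58% had. The difference was large but uncertain (log2 5.46, SE 1.63, edgeR adjusted p = 0.0623), but the call was lost without any single RFP+ library (adjusted p from 0.122 to 0.157). Of its exon bases, 17.7% overlap Bcl2l13 on the opposite strand, and counting is not stated to use strand.

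The other 16 members were below the filter on low counts in the embryo. Of these, 10 had reads in at least 4 of 9 libraries, and 5 of the 10 had RFP+ libraries all above the GFP+ libraries, a pattern seen for 28.4% of all 2184 genes under the filter with as many libraries with reads. Zmat3, Ppm1d, Pidd1 and Rrm2b had no read in any GFP+ library and reads in 4 of 4 RFP+ libraries. They met the minimum of 4 libraries through the RFP+ cells alone, and their values are given without a test. Zmat3 had 12.5, 28.9, 42.7 and 7.21 CPM there, at least 8.86-fold above a floor of 3 counts per library. Ppm1d had 14, 15.5, 4.27 and 35.3 CPM, at least 6.70-fold higher, and Pidd1 had 19.2, 4.23, 19.6 and 1.44 CPM, at least 4.31-fold higher. Rrm2b stayed between 1.71 and 3.68 CPM, at least 1.01-fold higher. Trp53inp1, with 1 count in all GFP+ libraries together, had 28, 11.3, 2.56 and 14.4 CPM in RFP+ libraries, a ratio of 100.0 with a 95% counting interval of 17.9 to 3949. Ratios divide the mean CPM of the higher group by the pooled CPM of the lower one, its counts over its summed library sizes. Such intervals and floors cover counting error only. More genes were detected in embryo RFP+ than in embryo GFP+ libraries.

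Cdkn1a and Pmaip1 were near 0 in the embryo. Cdkn1a had 1.09, 0, 0, 0.465 and 0 CPM in GFP+ and 5.16, 0.704, 0 and 2.16 CPM in RFP+ libraries (two-sided exact permutation p = 0.159, where the smallest possible is 0.00794 over 126 splits). Pmaip1 had 1 read in each population. Mdm2 was 61.2, 240, 0, 7.43 and 4.24 CPM in GFP+ libraries and 53.8, 40.8, 32.5 and 51.2 CPM in RFP+ libraries, so that the RFP+ values lay within the GFP+ spread. Perp, with 7.64, 110, 0, 0 and 130 CPM in GFP+ and 29.5, 13.4, 47.0 and 8.65 CPM in RFP+ libraries, overlapped in the same way. Neither was called (edgeR adjusted p = 0.961 and 0.904).

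The embryo and spheroid contrasts share no library, and their difference was tested for the 17 members. None passed, where 5.26% of 8182 genes did. One member had an unadjusted p under 0.05, Bid, whose log2 fold change was 5.46 in the embryo and -0.99 in spheroids (difference -6.45, SE 1.63, adjusted p = 0.102 with 7 degrees of freedom). Bid had passed the embryo filter on low counts through RFP+ cells alone. Ccng1 came next, at 1.84 and -2.47 (p = 0.0507, adjusted p = 0.403). An edgeR fit with 1 dispersion for all 4 groups called 12 of the 17. The share of all genes that this fit called was not computed, so the 12 are not a result about the members. A member called in spheroids and not in the embryo is thus not shown to differ between them by the first test.

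Spheroid cells were also set against embryo cells of the same colour. Source, day and culture differ together in these comparisons and cannot be told apart. Between GFP+ cells, 27 of 32 tested members were higher in spheroids, where 48.3% of 11822 genes were, and none in the embryo, where 19.7% were. DESeq2 also found 0 members higher in embryo GFP+ cells, and 0 had an unadjusted edgeR p under 0.05 in that direction. The median log2 fold change was 3.77, or 2.88 with the 7 members that have no embryo read put at their lower bound, against 0.67 over all genes. These 7 passed the filter on low counts through the spheroid libraries alone, as did Cdkn1a, Pmaip1, Trp53inp1 and Bid. Their calls are among the 27 and thus describe genes picked by their high group. With DESeq2's size factors the median of all genes was 0.22 and that of the members 3.28. The share of all calls that were higher in spheroids was 71.1%, and 57.4% with those size factors.

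Mdm2 (log2 4.24, SE 0.49), Perp (3.53, SE 0.48), Btg2 (3.40, SE 0.49) and Plk2 (2.93, SE 0.37), which had reads in 3 or 4 of the 5 embryo GFP+ libraries, were higher in spheroid GFP+ cells, and Trp53 by 1.14 (SE 0.21). Library B12 held much of the embryo reads: without it Mdm2 was 6.22, Perp 4.13 and Btg2 4.16, and Perp was 4.12 without E12. Ccng1 had 26.6 CPM in B12 and 0.465 CPM in D12 and no read in the other 3, with a log2 fold change of 6.95 (SE 0.45). Without B12 it was 11.67, a value that depends on the prior count because D12 alone then held reads. For genes with 1 or 2 embryo counts the ratio is given with its counting interval. Cdkn1a had 2 counts in the 5 embryo libraries together and a ratio of 1781 (493 to 14706). Pmaip1 had 1 count and a ratio of 2885 (518 to 113971), and Trp53inp1 had 1 count and a ratio of 7353 (1320 to 290414). With no embryo read, Zmat3 was at least 43.3-fold higher, Ppm1d at least 19.9-fold, Sesn2 at least 8.91-fold, Pidd1 at least 7.08-fold, Bbc3 at least 6.13-fold, Rrm2b at least 5.44-fold and Plk3 at least 1.91-fold. Embryo GFP+ libraries detected a median of 6830 genes and spheroid GFP+ libraries a median of 13689. The part of this difference in these ratios and bounds was not tested. Mdm4 (0.05), Bax (0.25), Ei24 (0.17), Xpc (0.04) and Sesn1 (-0.63) were not called. For 4 of them 1 library decided this. Mdm4 was higher in spheroids without E12 (0.70, edgeR adjusted p = 0.0485), and Bax without B12 (0.48, edgeR adjusted p = 0.0829) or D12 (0.46, edgeR adjusted p = 0.0949). For Sesn1 and Xpc, without the embryo GFP+ library A12, which had 211 and 185 CPM, they were higher in spheroids by 3.54 and 4.02 (edgeR adjusted p = 2.09e-05 and 2.14e-08).

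Between RFP+ cells the differences were smaller. Of 30 members tested, 18 were higher in spheroids, where 22.5% of 11147 genes were, and 1 in the embryo, where 20.1% were. The median was 1.00, or 0.92 with Fas at its bound, against 0.04 over all genes. Fas, Pmaip1 and Cdkn1a passed the filter on low counts through the spheroid libraries alone. Trp53inp1 and Ccng1 would not have passed it on the embryo libraries alone. The calls of these genes are among the 18 and thus describe genes picked by their high group. Pmaip1, with 1 embryo count, had a ratio of 297 (53.2 to 11715), Cdkn1a was higher by a log2 of 4.81 (SE 0.69, edgeR adjusted p = 7.6e-08), Trp53inp1 by 3.27 (SE 0.37), Ccng1 by 2.85 (SE 0.30) and Mdm2 by 1.83 (SE 0.34). Perp (1.05, edgeR adjusted p = 0.185), Plk2 (0.29), Bid (0.22) and Trp53 (0.11) were not called, though Trp53 was without H11 (0.22, edgeR adjusted p = 0.0719). Without F12, which held most of the embryo reads of Cdkn1a, its log2 was 5.79. Aen was higher in the embryo (-0.74, SE 0.26, edgeR adjusted p = 0.0228), a call lost without RFP+ library F12 or H11.

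Within each spheroid population Cdkn1a varied together with some members and not with others. Its log2 CPM was compared with that of the 23 other members of at least 20 CPM on average over the 84 spheroid libraries, some of which were lower in RFP+ cells, across 37 GFP+ libraries, without C9, and 39 RFP+ libraries, with the 7 alike pairs summed, which makes 46 relations. All libraries are pools of 10 cells, and depth differs between them. Spearman's rho was positive for 23 of 23 members in GFP+ and 19 of 23 in RFP+ libraries, with medians of 0.27 and 0.20, while over 6914 genes 48.1% and 46.8% were positive, with medians of -0.01 and -0.02. For Mdm2 in GFP+ libraries r was 0.62 (permutation p = 3e-05, adjusted 0.00023) and rho 0.61 (permutation p = 8e-05, adjusted 0.000736), and r was 0.55 without the 2 libraries farthest in Cdkn1a. In RFP+ libraries these were r 0.68, rho 0.58 (permutation p = 0.00015, adjusted 0.000986) and 0.55. For Plk2 rho was 0.46 in GFP+ (permutation p = 0.0048, adjusted 0.0158) and 0.71 in RFP+ libraries (permutation p = 1e-05, the smallest possible, adjusted 0.00023).

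An adjusted permutation p under 0.1 for Spearman's rho was found for 10 members in each population, and 9 were shared: Btg2, Ccng1, Mdm2, Perp, Phlda3, Plk2, Polk, Tnfrsf10b and Trp53inp1. The share of all genes that would pass this threshold was not computed, so the 10 and the 9 are not results about the members. Zmat3 passed in GFP+ libraries and Pmaip1 in RFP+ libraries, and the difference between populations was not tested. A rho of 0.5 or more was reached by 4 members in GFP+ and 7 in RFP+ libraries, and by 1.24% and 1.66% of all genes. Trp53 had a rho of 0.04 and 0.14 with Cdkn1a and Bax of 0.14 and 0.15, none past the threshold.

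**Figure D4:**
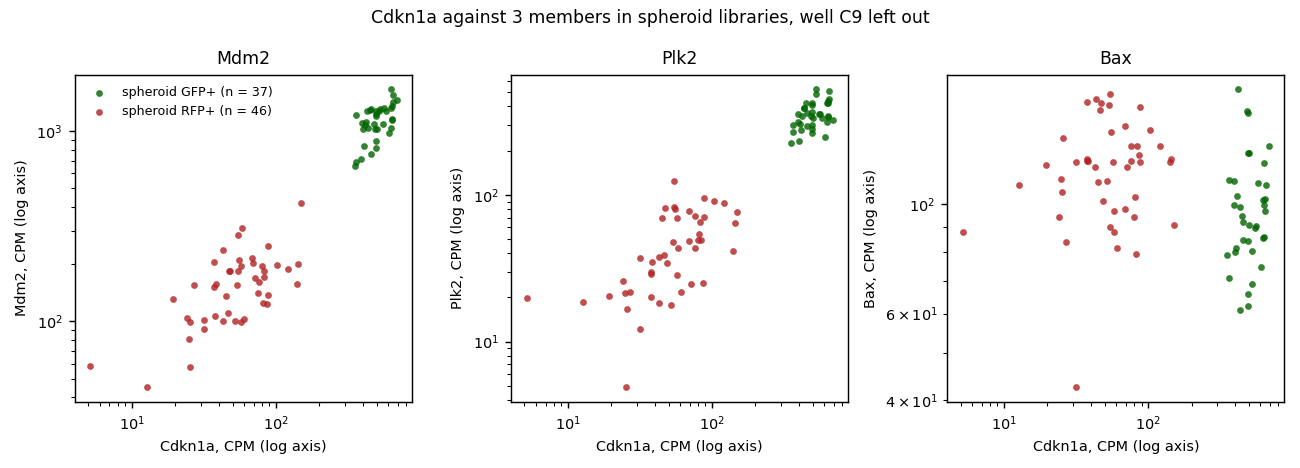
CPM of Cdkn1a (x, log axis) against Mdm2, Plk2 and Bax (y, log axes) in 37 GFP+ and 46 RFP+ spheroid libraries (points); rho in RFP+ cells is over 39, with 7 pairs summed. Mdm2 and Plk2 rise with Cdkn1a within each population (rho 0.61 and 0.58, 0.46 and 0.71), Bax does not (0.14 and 0.15).

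Other genes of the pathway were read from lists, beside the same shares of all genes tested (40.1% higher in spheroid GFP+ and 37.8% in spheroid RFP+ cells, 3.88% and 6.21% in the embryo). Of 27 tested further p53 targets, 19 were higher in spheroid GFP+ and 4 in RFP+ cells, with a median log2 fold change of -1.28. Higher in GFP+ cells were above all the cytokine Lif (-2.96) and the receptor Eda2r (-2.94), and in RFP+ cells the receptor Epha2 (0.99) and the replication clamp Pcna (0.78). Of 23 regulators of p53, 7 were higher in GFP+ cells, led by Ppp1r13l (-1.49) and the deacetylase Sirt1 (-0.75), and 12 in RFP+ cells, led by Trp53rka (1.04) and the kinase Hipk2 (0.77). Of 18 genes of the general apoptosis machinery, 6 were higher in GFP+ cells, including Cflar (-0.71), and 9 in RFP+ cells, including Bok (1.32) and Birc5 (0.97). In the embryo 4 of 22 regulators were higher in RFP+ cells, led by Trp53rka (5.71) and Rpl5 (2.02), 3 of 20 further targets were higher in RFP+ cells and 1 in GFP+ cells, and 0 of 17 apoptosis genes were called, with 0 at an unadjusted edgeR p under 0.05.

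Markers of other states moved with the spheroid populations, to be read against the shares of all genes tested of 40.1% for GFP+ and 37.8% for RFP+. Of the 12 dissociation response genes 7 were tested, of which 5 were higher in GFP+ cells, led by Atf3 (-3.36) and Jun (-2.49), and 2 in RFP+ cells, Ier2 (0.98) and Egr1 (0.41). Their sum was 200 to 592 CPM in GFP+ libraries without C9 and 58.4 to 167 CPM in RFP+ libraries. Pluripotent cell markers were higher in GFP+ cells for 6 of 8 tested, led by Dppa5a (-3.55) and Zfp42 (-3.40), with sums of 126 to 1749 against 17.8 to 642 CPM. Endoderm markers were higher in GFP+ cells for 3 of 4 tested and in RFP+ cells for 1, Foxa2 (1.88), with sums of 189 to 643 against 45.1 to 206 CPM, and none of the 12 was without a read in either spheroid population. Of the pharyngeal and second heart field markers, 5 of 7 tested were higher in RFP+ cells and 1, Isl1, in GFP+ cells. The 1 endothelial marker tested, Kdr, was higher in RFP+ cells (3.58), of 2 neural markers Nes was higher in GFP+ (-0.98) and Tubb3 in RFP+ cells (0.42), and no blood marker passed the filter. In embryo GFP+ cells 11 of the 12 endoderm and 9 of the 12 pluripotent markers had no read, Pou5f1 and Sox17 among them. Fewer genes were detected in these libraries than in embryo RFP+ libraries. Their pluripotent sums still ran from 0 to 487 CPM, with Tdgf1 alone at a mean of 181 CPM, and their endoderm sums from 0 to 21.4 CPM. In embryo RFP+ libraries endoderm markers summed to 9.37 to 656 CPM and pluripotent markers to 0.854 to 91.3 CPM. Cardiomyocyte markers summed to 29.6 to 1421 CPM in spheroid GFP+ libraries without C9 (median 68.2) and to 15.4 to 143 CPM in spheroid RFP+ libraries (median 63.3). Of 4 tested there, 3 were higher in GFP+ cells and 0 in RFP+ cells. The sums were 19223 to 55575 CPM in embryo GFP+ and 1259 to 2366 CPM in embryo RFP+ libraries. In the embryo 11 of 11 tested were higher in GFP+ than in RFP+ cells. Between GFP+ sources 10 of 12 pluripotent, 4 of 4 endoderm and 8 of 10 dissociation genes were higher in spheroids, where 48.3% of all genes tested were. Higher in the embryo were 1 pluripotent and 1 dissociation gene, where 19.7% of all genes tested were. The part of these genes in the levels of p53 targets was not tested.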

How the data were processed

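RNA of 10 sorted cells per well was sequenced after amplification. The authors trimmed reads with Trimmomatic 0.36, mapped them to mm10 (GRCm38) with HISAT2 2.0.4 and counted them per gene with featureCounts 1.5.2 of Subread, and the deposited table holds whole counts without normalization for 93 libraries. Without molecular identifiers, amplified copies are counted as reads. Groups came from the sample labels. Members, roles and gene lists were chosen with earlier results of these data known.

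Counts were tested with edgeR 4.0.16 (R 4.3.3) by the quasi-likelihood F-test with TMM normalization and filterByExpr (minimum count 10, minimum total 15, proportion 0.7), each contrast on its own libraries. Adjustment followed Benjamini and Hochberg across every gene in the fit. The difference between the embryo and spheroid contrasts used the separate standard errors with 7 degrees of freedom. Log2 CPM for permutation tests had a prior count of 2, with 100000 resamples in spheroids. Exon lengths and overlaps came from GENCODE M21. Alternatives used DESeq2 1.42.0, limma 3.58.1, other size factors, no filter, a stricter threshold, summed or left-out wells. Mean levels without well C9 were added after seeing the data. The scripts were tested on simulated data. All 33 members are named. Of each further list the genes named are the 2 with the largest called change in each direction, and 1 gene that this names is not reported here. The authors' own comparisons were not used.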

Additional observations from a re-analysis of the deposited data

Results flagged for a closer look

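In the groups of 4 and 5 embryo libraries, single libraries stood apart from the rest by Dixon's criterion. It flags about 1 in 20 groups of normally spread values by chance, and levels with many zeros need not be so spread. The share of all genes flagged was not computed, so the counts of members flagged in either population are not results about the members. Among embryo GFP+ libraries this held for 12 of 25 members with any spread, and in 4 of these 12 the library was the only one with reads. Well A12 had 499 CPM of Trp53 (next 203), 211 CPM of Sesn1 (next 11.2), 185 CPM of Xpc (next 6.10), 15.3 CPM of Gadd45a (next 2.49) and 3.28 CPM of Bid (next 0.929). Well B12 had 240 CPM of Mdm2 (next 61.2) and 26.6 CPM of Ccng1 (next 0.465). Well C12 had 11.2 CPM of Fas and 1.24 CPM of Trp53inp1, and E12 had 9.54 CPM of Ddb2, where the other GFP+ libraries had none. Well D12 had 17.2 CPM of Phlda3 (next 1.09) and, alone, 0.465 CPM of Pmaip1.

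Among embryo RFP+ libraries it held for 4 of 32 members. Well H11 had 422 CPM of Trp53 (next 328), G12 had 9.40 CPM of Sesn2 and 19.6 CPM of Sfn (next 1.47 for both), and F12 alone had 0.737 CPM of Pmaip1.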

How the results depend on the processing

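The 31 calls between spheroid populations held in all 341 values computed under alternatives. In the embryo contrast 1 member higher in RFP+ cells became 5 with DESeq2 (Bid, Trp53inp1, Zmat3, Ppm1d, Pidd1), 7 without the filter on low counts, 0 at an adjusted p under 0.05, and 0 to 2 when 1 library was left out (2 without GFP+ library A12 or RFP+ library G12, 0 without F12 or G11). The 27 members higher in spheroid than in embryo GFP+ cells became 17 with limma voom and a variance for each group and 27 to 30 without 1 library, and the 0 higher in the embryo became 1 (Sesn1) with DESeq2's size factors. The 18 members higher in spheroid than in embryo RFP+ cells became 6 with limma voom and 16 to 19 without 1 library, and the 1 higher in the embryo became 2 with DESeq2, 2 without the filter, 0 with limma voom and 0 to 1 without 1 library (0 without F12 or H11). The difference between contrasts went from 0 to 12 calls in the joint fit. Shares of all genes called were not computed for these alternatives, so their counts are not results about the members. Of all embryo calls 61.5% were higher in RFP+ cells, 69.8% with DESeq2 and 81.9% without the filter. With limma voom the share of calls higher in spheroids went from 71.1% to 74.2% between GFP+ sources. Between RFP+ sources it went from 52.8% to 38.3%. The cause of these changes was not tested.

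Signs turned in 14 of 264 member values in the embryo contrast, 23 of 448 between GFP+ sources and 6 of 389 between RFP+ sources, none of them of a called member. In the embryo, limma voom gave Mdm2 1.61, Perp 1.48, Btg2 2.10, Plk2 0.58, Xpc 1.79, Polk 0.57 and Rchy1 0.76, and leaving out 1 library gave Mdm2 -0.83 to 1.27, Btg2 -0.91 to 0.20, Plk2 -1.11 to 0.17 and Rchy1 -0.41 to 0.27. Between GFP+ sources, in the order DESeq2 and edgeR with its size factors, Mdm4 was -0.42 and -0.42, Bax -0.18 and -0.17, Xpc -0.40 and -0.39 and Ei24 -0.21 and -0.21. With total counts Mdm4 was -0.075 and Xpc -0.072, with libraries of at least 1000000 counts -0.054 and -0.056, without the filter Xpc was -0.037, and with limma voom Sesn1 was 3.94. Leaving out 1 library gave Mdm4 -0.29 to 0.70, Sesn1 -1.01 to 3.54, Xpc -0.34 to 4.02 and Ei24 -0.21 to 0.81. Between RFP+ sources Pidd1 was 0.20 with limma voom, and leaving out 1 library gave Pidd1 -0.53 to 0.26, Ddb2 -0.045 to 1.00, Tigar -0.088 to 0.36 and Rchy1 -0.0080 to 0.26. Levels with total counts moved by over 1 SD in 0 of 132 cases. No paired analysis was possible because the labels give no replicate number shared between groups. A fit with plate row as a covariate kept 29 and 2 calls between spheroid populations.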
